A study of Mus musculus with 32 samples.

Results

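ATP-dependent chromatin remodellers are protein machines that use the energy of ATP to slide, evict or exchange nucleosomes, the DNA-wrapped histone spools that make up chromatin. The genes described here are the protein-coding genes whose symbol starts with Smarc, Arid, Chd followed by a digit, Ino80, Baz or Dpf, or is Pbrm1, Ss18, Actl6a, Actl6b, Srcap, Ep400 or Bptf, with at least 10 counts in at least 4 libraries. One Arid gene and one Chd gene were left out by that rule and were not analysed here. The rule gave 50 genes of the 54146 gene identifiers in the count matrix, and all 50 reached the count minimum. By complex they comprised 19 subunits of BAF and PBAF (the mammalian SWI/SNF complexes), 7 ISWI ATPases and BAZ/BPTF partners, 9 CHD family members, 7 genes of the INO80, SRCAP and p400 complexes, 2 other SNF2 family members and 6 other ARID proteins.

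RNA was sequenced from the hippocampus or the striatum of a single hemisphere of male C57BL/6J mice aged 12 weeks, a common inbred laboratory strain. Each mouse received an intraperitoneal injection of CI-994 at 30 mg/kg, a benzamide inhibitor of class I histone deacetylases (HDACi), or of its solvent (Veh), 1 h before behaviour. Behaviour was either contextual fear conditioning with 2 foot shocks of 0.2 mA (CFC) or exposure to the chamber for as long with no shock (Context), and tissue was collected 1 h later. The 2 treatments, 2 behaviours and 2 regions made 8 groups of 4 mice, each library holding 1 region of 1 mouse, for 32 libraries. Housing followed behaviour, 1 behaviour per cage, which means that an effect of cage cannot be told apart from one of behaviour. No allele or transgene separated the groups, the injection and handling were common to all of them, and no group of untouched mice was included.

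Totals per library were 26026024 to 36670767 counts for hippocampus, and 27418127 to 33635025 for striatum. Region labels held against their markers: a list of medium spiny neuron genes summed to 548 to 669 CPM (counts scaled to the size of each library) in hippocampal libraries and 8783 to 14464 in striatal ones. A few libraries stood apart in cell markers. In the hippocampus, HDACi-CFC replicates 2 and 4 carried 6395 and 6189 CPM of 12 choroid plexus markers, against 32.8 to 447 CPM in the other hippocampal libraries. In the striatum, the medium spiny neuron list was lowest in HDACi-CFC replicate 2 and Veh-CFC replicate 3, with a mean log2 CPM of 8.32 and 8.37 against at least 8.62 elsewhere. Replicates 3 and 4 also differed from replicates 1 and 2 within groups, for 35.7% of all genes tested in hippocampus (21 of 49 remodelling genes) and 20.5% in striatum (14 of 50).

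As background, each remodelling complex is built around an ATPase of the SNF2 family, and its other subunits decide which nucleosomes it binds and what it does there. BAF and PBAF open chromatin at enhancers and promoters. ISWI complexes space nucleosomes evenly, CHD proteins read methylated histone tails and act during transcription and in repression, and INO80, SRCAP and p400 exchange histone variants and serve DNA repair. In the nervous system BAF is known for a change of subunits: neural progenitors use Actl6a, Dpf2 and Ss18, and neurons gain the paralogs Actl6b, Dpf1 or Dpf3, and Ss18l1. Histone acetylation, which class I deacetylases remove, is read by bromodomains present in Smarca2, Smarca4, Pbrm1, Bptf and the BAZ proteins.

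Without drug or shock, the per-length level (RPKM, CPM divided by annotated exon length in kilobases) differed widely among the members. In the hippocampus of Veh-Context mice it was highest for Chd3, an ATPase of the repressive NuRD complex, at 91.1 ± 8.43 (SD, n = 4). Smarcc2, a BAF scaffold, came next at 42.5, followed by the BAF ATPase Smarca4 at 22.0 and Smarcd1 at 21.5, whose values over mice overlapped. Chd3 and Smarcc2 did not overlap the gene next below them in that order. Actl6b stood at 15.2 and its paralog Actl6a at 3.15, so the neuronal form prevailed per length. Lowest were Baz1a at 0.270, Srcap at 0.173 and Arid3c at 0.004 RPKM. Srcap, the ATPase that deposits the variant H2A.Z, had only 30 to 132 counts per library, and 67% of its annotated exon bases are shared with the predicted gene Gm42715 on the same strand, so that its level and its changes are uncertain.

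CI-994 moved a minority of the members, more of them down than up. A gene was called where edgeR's quasi-likelihood test gave an adjusted p under 0.05 over all genes tested. In the hippocampus after CFC, 10 of 49 members fell (20.4%; 13.4% of all genes fell) and 5 rose (10.2%; 7.42% of all genes). In the hippocampus after Context 11 of 49 fell (22.4%; 13.2% of all genes) and 5 rose (10.2%; 6.55%). In the striatum after CFC 12 of 50 fell (24.0%; 14.6% of all genes) and 5 rose (10.0%; 9.57%). In the striatum after Context 13 of 50 fell (26.0%; 14.5% of all genes) and 5 rose (10.0%; 10.3%). The share of members that fell was thus above that of all genes in each comparison. Of the members 10.2% or 10.0% rose, against 6.55% to 10.3% of all genes. The members were measured more tightly in these tests, with median standard errors of 0.086 to 0.090 against 0.135 to 0.138 over all genes. The part of this precision in the shares of members called, here and below, was not tested. The median member hardly moved: its log2 fold change was -0.04, -0.02, -0.04 and -0.04 in that order of comparisons, against 0.01, 0.01, 0.03 and 0.03 for all genes.

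The CFC and Context comparisons of a region use separate mice. Over all 4, 9 of the 49 members tested in each fell every time (18.4%; 8.71% of all genes tested in all 4) and 3 rose every time (6.12%; 2.34%). The 9 were Actl6a, Smarcb1, Ss18, Smarca5, Chd1, Ino80, Ino80d, Smarcad1 and Arid4a, and the 3 were Dpf1, Chd2 and Arid5b. A further 5 fell and 5 rose in 1 to 3 comparisons, and 28 passed in none. In tissue of mixed cells, fewer cells of a type and less RNA per cell cannot be told apart. Markers of oligodendrocyte precursors moved with the drug: 6, 6, 6 and 5 of 10 rose, and their sum was 624 to 732 CPM in hippocampal Veh libraries against 741 to 829 with CI-994, and 481 to 548 against 589 to 732 in striatum. Hippocampal excitatory neuron markers rose in 2 and 4 of 14 in hippocampus. Their sums were 1192 to 1424 CPM in Veh-Context and 1429 to 1728 in HDACi-Context. After CFC the sums overlapped, at 1282 to 1520 CPM in Veh-CFC and 1421 to 1635 in HDACi-CFC. All 12 choroid plexus markers were called higher in hippocampus after CFC, but only HDACi-CFC replicates 2 and 4 carried them, at 6395 and 6189 CPM. Replicates 1 and 3 of that group held 39.1 and 34.0 CPM, against 37.8 to 86.6 in Veh-CFC. Astrocyte markers rose in 1, 1, 3 and 5 of 10, endothelial markers in 3, 1, 3 and 5 of 10. The part of these shifts in the changes of the remodelling genes was not tested.

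The split between higher and lower calls depended on scaling. Of all genes called in the 4 comparisons, 64.3%, 66.9%, 60.4% and 58.5% were lower, which became 76.4%, 81.0%, 76.5% and 78.6% when libraries were scaled to their totals alone and 54.6%, 51.1%, 55.6% and 52.3% with offsets for GC content and length. Among the members those scalings gave 3 higher and 15 lower, 3 and 20, 4 and 15, 3 and 20 by totals, and 4 and 16, 8 and 16, 5 and 15, 7 and 18 with the offsets.

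**Figure D1:**
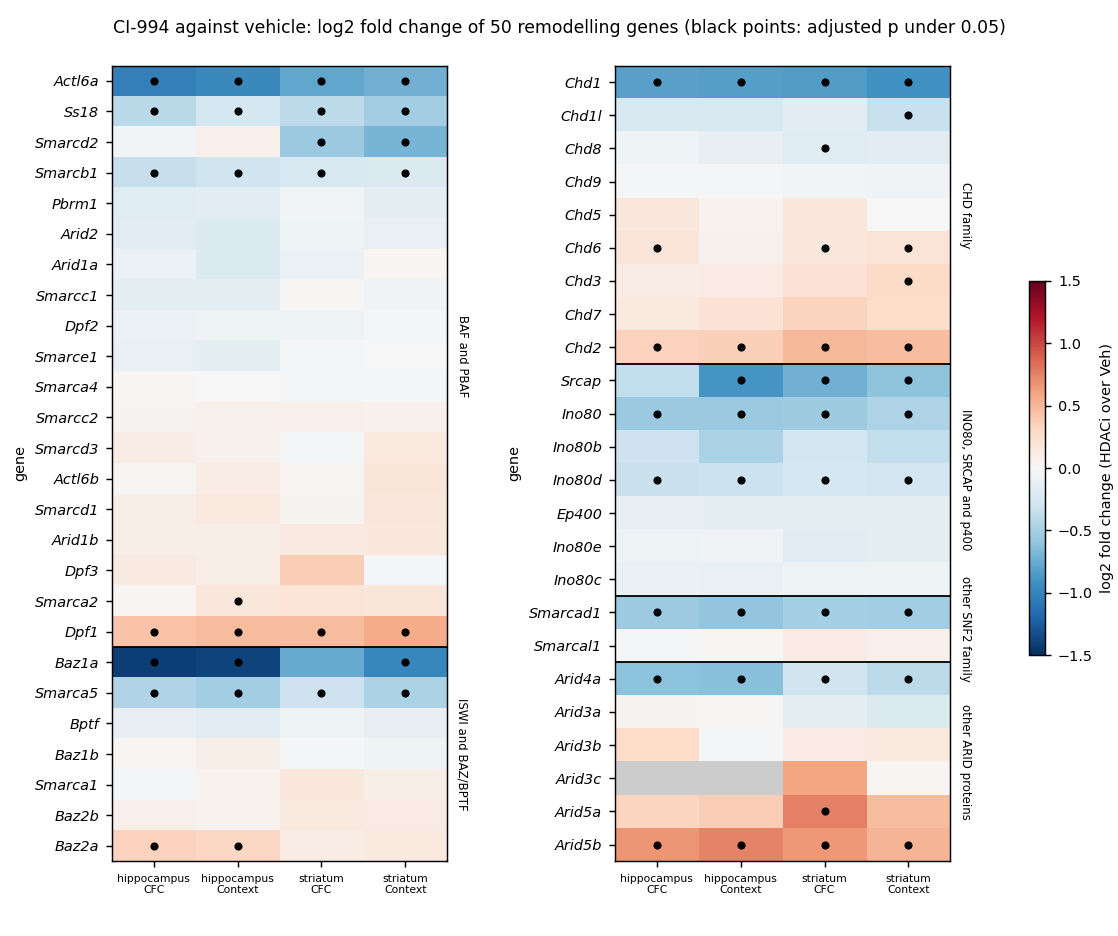
Log2 fold change of CI-994 over vehicle for the 50 genes (rows, grouped by complex and ordered by mean change) in the 4 region and behaviour comparisons (columns); a black point marks an adjusted p under 0.05 and grey marks a gene not tested. Blue rows with 4 points are the 9 genes that fell in every comparison, and red rows with 4 points are Dpf1, Chd2 and Arid5b.

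Actl6a had the largest fall in hippocampus among the members that fell everywhere. It encodes BAF53A, an actin-like subunit shared by progenitor BAF, INO80 and p400 complexes, and lies at chr3:32706298-32726973 on the plus strand (GRCm38). In hippocampus it was at 12.8, 12.1, 11.7 and 12.4 CPM in the 4 Veh-Context mice, 13.4, 11.2, 14.7 and 13.6 in Veh-CFC, 5.61, 5.57, 6.54 and 5.96 in HDACi-Context and 5.36, 6.21, 6.60 and 6.67 in HDACi-CFC. In striatum the values were 14.9, 15.3, 15.6 and 14.2 in Veh-Context, 14.2, 15.6, 14.5 and 15.3 in Veh-CFC, 7.79, 8.76, 8.74 and 8.48 in HDACi-Context and 7.82, 8.25, 7.77 and 8.81 in HDACi-CFC. Every CI-994 library lay below every vehicle library of its region. The log2 fold change was -1.03 ± 0.103 (adjusted p = 3.94e-06) in hippocampus after CFC and -0.97 ± 0.104 (adjusted p = 7.28e-06) after Context, where ± gives the standard error throughout. In striatum it was -0.78 ± 0.0731 (adjusted p = 1.58e-06) after CFC and -0.72 ± 0.0726 (adjusted p = 2.92e-06) after Context. Its exons overlap Mrpl47 on the other strand over 11.6% of its exon bases, and Mrpl47 had log2 fold changes of -0.41, -0.27, -0.43 and -0.34, of which the second did not pass.

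Actl6b, the neuronal paralog (BAF53B, chr5:137553517-137569582, plus strand), passed in none of the comparisons. Its hippocampal values were 71.6, 72.4, 59.7 and 56.4 CPM in Veh-Context and 71.1, 79.6, 52.9 and 63.0 in HDACi-Context, and the groups overlapped throughout. The log2 fold changes of Actl6b were 0.02, 0.12, 0.03 and 0.18 in hippocampus CFC, hippocampus Context, striatum CFC and striatum Context, the order used for every set of 4 below, with standard errors of 0.118, 0.118, 0.095 and 0.095. The ratio of Actl6b to Actl6a per exon base therefore moved with Actl6a. In hippocampus it was 4.84 ± 0.574 (SD, n = 4) in Veh-Context and 4.94 ± 1.31 in Veh-CFC, against 10.4 ± 2.44 in HDACi-Context and 10.1 ± 1.53 in HDACi-CFC. In striatum it was 4.54 and 4.85 with vehicle against 8.49 and 8.49 with the drug. The vehicle and drug ratios did not overlap in any of the 4 comparisons (exact two-sided permutation test, p = 0.0286, the smallest that 4 against 4 allows, and 0.0549 after adjustment over the 48 ratio tests run).

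Dpf1, which encodes the neuronal double PHD finger subunit BAF45B (chr7:29303951-29318243, plus strand), rose. In hippocampus it was at 41.6, 33.3, 27.4 and 24.0 CPM in Veh-Context, 36.6, 38.1, 29.7 and 31.1 in Veh-CFC, 45.8, 48.1, 34.3 and 38.2 in HDACi-Context and 47.2, 44.2, 39.2 and 43.1 in HDACi-CFC. In striatum it was at 57.1, 54.1, 43.6 and 41.7 in Veh-Context, 58.9, 49.0, 41.8 and 48.9 in Veh-CFC, 67.1, 79.8, 55.5 and 65.4 in HDACi-Context and 72.3, 60.8, 63.8 and 64.0 in HDACi-CFC. The CFC groups did not overlap in either region, whereas the Context groups did, replicates 3 and 4 being the lower ones in both treatments. The log2 fold changes were 0.42 ± 0.139, 0.48 ± 0.14, 0.48 ± 0.124 and 0.56 ± 0.124, with adjusted p of 0.04, 0.0222, 0.00953 and 0.00325. Without the libraries that stood apart, the hippocampal CFC change was 0.43 with an adjusted p of 0.184. Leaving out single libraries ended its hippocampal call in 7 of 16 fits after CFC and 4 of 16 after Context.

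The other PHD finger paralogs did not pass. Dpf2, a subunit of progenitors that was also present in this adult tissue, had log2 fold changes of -0.09, -0.08, -0.07 and -0.03. In hippocampal Veh-Context it was at 7.65 RPKM, against 5.87 for Dpf1, with overlapping values. Dpf3 had log2 fold changes of 0.14, 0.10, 0.37 and -0.03. Per exon base, Dpf1 over Dpf2 went from 0.760 and 0.834 in hippocampal Veh-Context and Veh-CFC to 1.13 and 1.20 with CI-994, and from 0.982 and 1.02 to 1.48 and 1.51 in striatum. The groups of that ratio were apart in each of the 4 comparisons, at the same smallest permutation p.

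**Figure D2:**
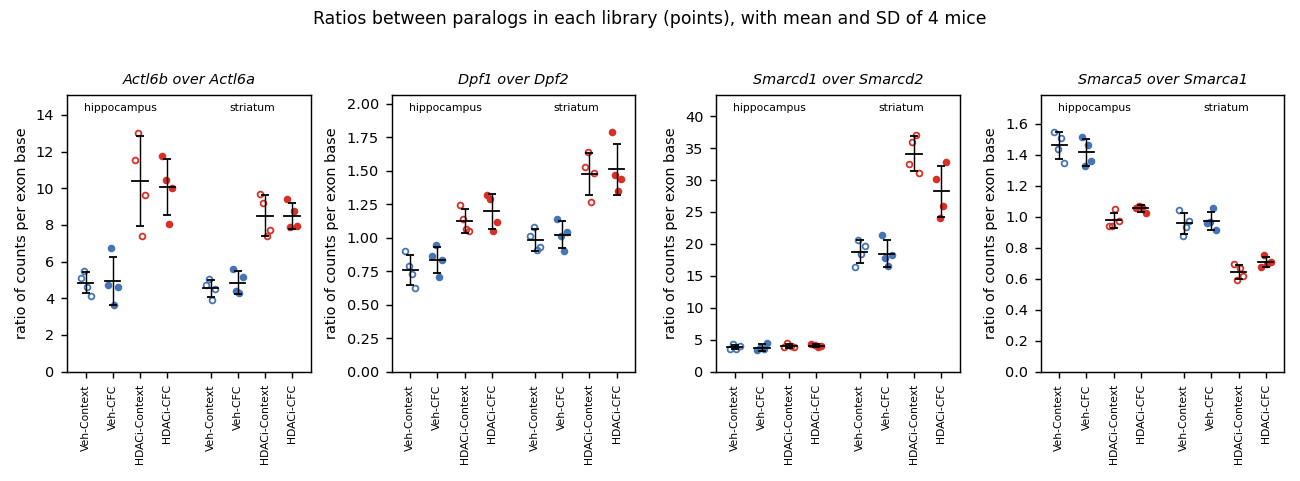
Ratio of counts per exon base between paralogs in each library (points; open Context, filled CFC, blue vehicle, red CI-994), with the mean and SD of 4 mice as bars. The ratios Actl6b over Actl6a, Dpf1 over Dpf2 and Smarca5 over Smarca1 separate the treatments in both regions, and Smarcd1 over Smarcd2 does so in striatum, with means of 18.8 and 18.5 against 34.2 and 28.2.

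Smarcb1 and Ss18 were the other BAF subunits to fall in all 4 comparisons. Smarcb1 (BAF47), a core subunit and tumour suppressor, ranged over 40.7 to 51.1 CPM in the 8 hippocampal vehicle libraries and 30.0 to 38.8 in the 8 CI-994 libraries. Its striatal range was 47.7 to 58.2 with vehicle and 38.8 to 46.0 with the drug. Its log2 fold changes were modest, -0.34, -0.30, -0.24 and -0.22 with adjusted p of 0.00895, 0.0208, 0.0244 and 0.0388. Without the libraries that stood apart the hippocampal CFC value was -0.38 with an adjusted p of 0.0692.

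Ss18, a BAF subunit known from the SS18-SSX fusion of synovial sarcoma and used by progenitors, ranged over 33.7 to 42.8 CPM with vehicle and 27.3 to 32.6 with CI-994 in hippocampus. In striatum its ranges were 25.3 to 29.4 and 17.1 to 20.3 CPM, so that the 2 treatments did not overlap in either region. Its log2 fold changes were -0.40, -0.27, -0.39 and -0.52, with adjusted p of 0.000929, 0.0175, 0.000248 and 1.53e-05.

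Of the 2 ATPases of BAF, Smarca2 gave 1 call and Smarca4 none. Smarca4 (BRG1) ranged over 114.7 to 171.2 CPM with vehicle and 110.4 to 160.3 with CI-994 in hippocampus, and the groups overlapped throughout. Its log2 fold changes were 0.03, -0.01, -0.03 and -0.01 with standard errors of 0.138, 0.138, 0.117 and 0.117. Smarca2 (BRM), the alternative ATPase, had 0.03, 0.17, 0.20 and 0.18 and passed in hippocampus after Context (adjusted p = 0.0194). Without the striatal libraries that stood apart it also passed in striatum after CFC, at 0.25 (adjusted p = 0.0144), and without Veh-CFC replicate 3 alone it passed in both striatal comparisons, at 0.30 and 0.18 (adjusted p = 0.00355 and 0.0431). The ratio of Smarca2 to Smarca4 did not separate the treatments in any comparison.

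Most scaffold and targeting subunits did not pass either. The scaffold Smarcc1 had log2 fold changes of -0.13, -0.14, 0.02 and -0.05 and its paralog Smarcc2 of 0.04, 0.06, 0.08 and 0.07. Among the ARID subunits that set the type of complex, Arid1a of canonical BAF had -0.09, -0.20, -0.09 and 0.03, Arid1b 0.09, 0.08, 0.13 and 0.16, and Arid2 of PBAF -0.17, -0.20, -0.07 and -0.11. None of these passed in the main fit. The ratio of Arid1a to Arid1b per exon base was still lower with the drug without overlap in 3 of 4 comparisons (means of 1.27 against 1.04 in hippocampus Context). With a term for replicates 1 and 2 against 3 and 4, Arid1a and Arid2 passed as lower in hippocampus after Context. Both were at -0.20 (adjusted p = 0.00844 and 0.0347). With the same term Arid1b passed as higher in striatum after Context, at 0.17 (adjusted p = 0.0372). Over the 19 BAF and PBAF members, 1 rose and 3 fell in hippocampus CFC, 2 and 3 in hippocampus Context, and 1 and 4 in each striatal comparison. Of all genes, 7.42%, 6.55%, 9.57% and 10.3% rose and 13.4%, 13.2%, 14.6% and 14.5% fell. The medians of the 19 members were -0.04, -0.01, -0.03 and -0.01.

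Smarcd2, one of 3 alternative BAF60 subunits, fell in the striatum. In the striatum it was at 12.3, 10.6, 9.37 and 8.74 CPM in Veh-Context, 10.8, 11.3, 9.54 and 10.96 in Veh-CFC, 6.37, 6.08, 5.04 and 5.87 in HDACi-Context and 7.05, 7.54, 6.84 and 5.90 in HDACi-CFC, with no overlap between treatments. In hippocampus the values were 24.8, 20.3, 18.3 and 16.9 in Veh-Context, 23.4, 23.6, 19.2 and 17.6 in Veh-CFC, 23.2, 20.6, 16.3 and 19.8 in HDACi-Context and 18.9, 21.1, 17.0 and 21.0 in HDACi-CFC, and the treatments overlapped. The striatal log2 fold changes were -0.56 ± 0.114 (adjusted p = 0.00179) and -0.70 ± 0.114 (adjusted p = 0.000257), and the hippocampal ones -0.04 ± 0.127 (adjusted p = 0.878) and 0.07 ± 0.128 (adjusted p = 0.764). The difference between regions itself passed after Context, at 0.76 ± 0.174 (adjusted p = 0.0349) as hippocampus minus striatum, where 0.62% of all genes passed, and was 0.52 ± 0.173 (adjusted p = 0.287) after CFC, where 0.266% did. Smarcd2 was the only one of the 50 members with such a call. Leaving out any of 5 vehicle Context libraries ended it (hippocampus replicates 2, 3 and 4, and striatum replicates 1 and 2).

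Its paralogs Smarcd1 and Smarcd3 did not pass, with log2 fold changes of 0.08, 0.14, 0.04 and 0.17 and 0.11, 0.06, -0.03 and 0.14. Of the exon bases of Smarcd3, 50.1% are shared with Chpf2 on the other strand. Smarcd1 over Smarcd2 per exon base was 3.87 and 3.76 with vehicle and 4.05 and 4.05 with CI-994 in hippocampus, and in striatum it went from 18.8 and 18.5 to 34.2 and 28.2.

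**Figure D3:**
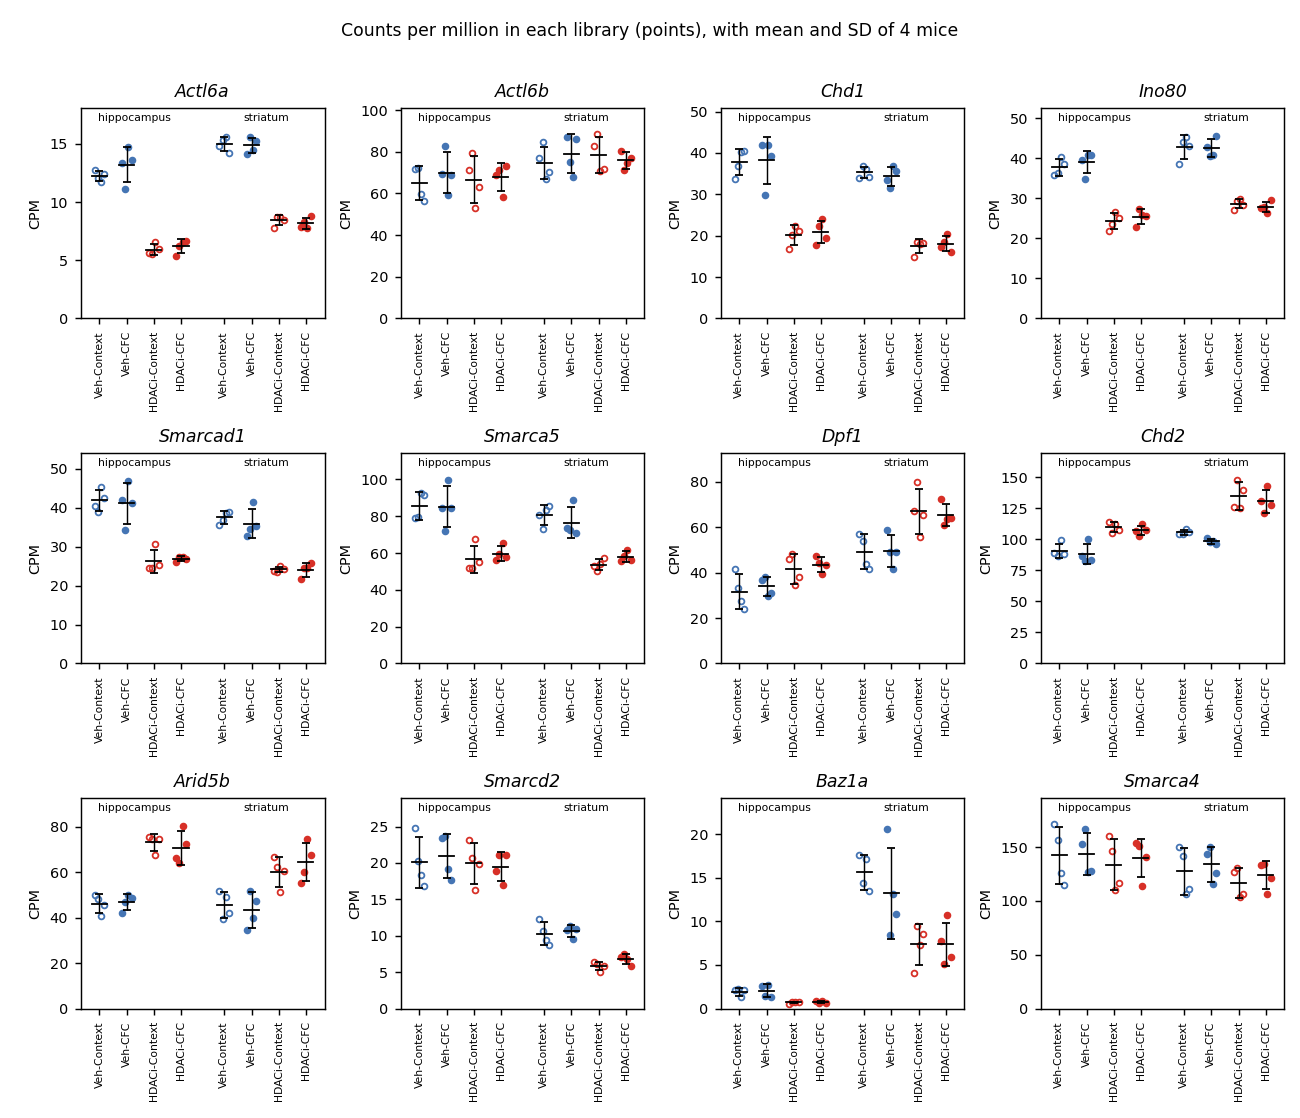
CPM of 12 members in each of the 32 libraries (points; open Context, filled CFC, blue vehicle, red CI-994), with the mean and SD of the 4 mice in each group. Actl6a, Chd1, Ino80 and Smarcad1 lie lower with CI-994 in both regions with no overlap of treatments, Chd2 lies higher, and Actl6b and Smarca4 overlap between all groups of a region.

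Among the CHD family, Chd1 fell and Chd2 rose in every comparison. Chd1 (chr17:15704967-15772610, plus strand) encodes a reader of trimethylated H3K4 that clears nucleosomes from the path of RNA polymerase II. Its hippocampal values were 33.8, 36.8, 40.1 and 40.4 CPM in Veh-Context, 41.9, 29.9, 42.0 and 39.2 in Veh-CFC, 16.8, 20.1, 22.4 and 21.1 in HDACi-Context and 17.9, 22.2, 23.9 and 19.6 in HDACi-CFC. Striatal values were 34.0, 36.9, 36.0 and 34.1 in Veh-Context, 33.4, 31.5, 36.9 and 35.6 in Veh-CFC, 14.9, 18.6, 18.04 and 18.1 in HDACi-Context and 17.3, 18.5, 20.5 and 16.1 in HDACi-CFC. All CI-994 libraries were below all vehicle libraries. The log2 fold changes of Chd1 were -0.81 ± 0.127, -0.83 ± 0.128, -0.84 ± 0.09 and -0.90 ± 0.0899, with adjusted p of 0.000223, 0.000177, 5.37e-06 and 2.39e-06.

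Chd2 (chr7:73426638-73541830, minus strand), the closest relative of Chd1 and a gene linked to epileptic encephalopathy, was at 89.4, 86.4, 99.2 and 88.2 CPM in hippocampal Veh-Context, 86.6, 82.8, 100.0 and 83.7 in Veh-CFC, 114.3, 105.1, 112.2 and 107.7 in HDACi-Context and 106.6, 102.7, 112.0 and 107.6 in HDACi-CFC. In striatum it was at 104.0, 104.2, 108.5 and 106.1 in Veh-Context, 101.2, 97.9, 98.4 and 96.5 in Veh-CFC, 125.8, 147.9, 125.1 and 139.9 in HDACi-Context and 130.5, 120.8, 143.3 and 127.4 in HDACi-CFC. The drug libraries were the higher ones in each comparison, without overlap. The log2 fold changes were 0.35, 0.36, 0.49 and 0.46 with a standard error of 0.072 in each, and adjusted p of 0.00225, 0.0018, 9.88e-05 and 0.000167. The same-strand gene 1810026B05Rik covers 2628 of the 14300 exon bases of Chd2 and did not pass.

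The remaining CHD genes gave smaller values. Chd6 had log2 fold changes of 0.19, 0.06, 0.16 and 0.21 and passed in 3 comparisons, but leaving out any library of the striatum ended its call there after CFC. Its hippocampal call was lost without the libraries that stood apart, at 0.17 (adjusted p = 0.14), and in 4 of 16 fits that left out a library. Chd3 rose in striatum after Context (0.28 ± 0.0877, adjusted p = 0.0259), and Chd1l, a remodeller recruited by poly(ADP-ribose) at DNA damage, fell there (-0.33 ± 0.0961, adjusted p = 0.0184), a call lost without HDACi-Context replicate 2. Chd8, the autism-linked repressor of Wnt target genes, passed in the main fit in striatum after CFC (-0.18 ± 0.0566, adjusted p = 0.031). Its 4 log2 fold changes ran from -0.18 to -0.07. In striatum after Context it passed with a term for replicates 1 and 2 against 3 and 4 (-0.16, adjusted p = 0.0325). There it also passed without the libraries that stood apart (-0.18, adjusted p = 0.0264). With offsets for GC content and length Chd8 passed as lower in all 4 comparisons. Chd5, a neuronal NuRD ATPase, had 0.16, 0.05, 0.17 and -0.01, Chd7, the CHARGE syndrome gene, 0.14, 0.22, 0.34 and 0.28, and Chd9 -0.03, -0.02, -0.04 and -0.05, none of which passed. Of the 9 CHD members 2 rose and 1 fell in hippocampus CFC (7.42% and 13.4% of all genes), and 1 and 1 in hippocampus Context (6.55% and 13.2%). In striatum 2 and 2 did so after CFC (9.57% and 14.6%), and 3 and 2 after Context (10.3% and 14.5%).

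In the INO80, SRCAP and p400 group no member rose. All 7 had negative log2 fold changes in all 4 comparisons, with medians of -0.31, -0.32, -0.26 and -0.27, and 2, 3, 3 and 3 of them passed. Of all genes, 13.4%, 13.2%, 14.6% and 14.5% fell and 7.42%, 6.55%, 9.57% and 10.3% rose. With 7 genes, none rising lies near the latter shares. Ino80 (chr2:119373042-119477687, minus strand), the ATPase that names its complex, was at 35.7, 36.2, 40.3 and 38.4 CPM in hippocampal Veh-Context, 39.4, 34.9, 40.7 and 40.8 in Veh-CFC, 21.8, 23.5, 26.6 and 25.1 in HDACi-Context and 22.8, 27.2, 25.8 and 25.6 in HDACi-CFC. Striatal values were 38.6, 44.0, 45.3 and 43.1 in Veh-Context, 42.8, 40.6, 40.9 and 45.5 in Veh-CFC, 27.2, 29.4, 29.7 and 28.2 in HDACi-Context and 27.4, 27.7, 26.4 and 29.5 in HDACi-CFC. The treatments did not overlap. In log2 units the changes were -0.56 ± 0.0846, -0.55 ± 0.085, -0.53 ± 0.0656 and -0.47 ± 0.0653, with adjusted p of 0.000168, 0.000174, 2.14e-05 and 6.56e-05.

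Ino80d, an accessory subunit, had log2 fold changes of -0.33, -0.32, -0.26 and -0.27 and passed in all 4. Its hippocampal calls were lost in 5 and 6 of 16 fits that left out a library, and without the libraries that stood apart it was at -0.28 (adjusted p = 0.194) in hippocampus CFC. Ino80b had similar sizes, -0.31, -0.47, -0.28 and -0.37, but did not pass. The ATPase Ep400, which also deposits H2A.Z, had -0.12, -0.13, -0.14 and -0.15 and did not pass in the main fit. With offsets for GC content and length Ep400 passed in all 4, at -0.23, -0.20, -0.26 and -0.26. With a term for replicates 1 and 2 against 3 and 4 it passed in hippocampus after Context and in both striatal comparisons (adjusted p = 0.0497, 0.0379 and 0.0284). Srcap passed in 3 of 4 comparisons, with log2 fold changes of -0.37, -0.89, -0.73 and -0.60 and adjusted p of 0.179, 0.00277, 0.00291 and 0.0103. Its hippocampal values were 3.18, 2.85, 3.00 and 1.87 CPM in Veh-Context and 1.498, 1.55, 1.46 and 1.05 in HDACi-Context. The overlapping Gm42715 had log2 fold changes of -0.56, -0.65, -0.43 and -0.82, of which the last passed, so reads of the pair may be split between them.

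Smarca5 (SNF2H), the main ISWI ATPase, fell in all 4 comparisons, with log2 fold changes of -0.45 ± 0.111, -0.52 ± 0.111, -0.31 ± 0.0835 and -0.48 ± 0.0835 and adjusted p of 0.00747, 0.00299, 0.0112 and 0.000496. It was at 78.9, 79.3, 92.9 and 91.7 CPM in hippocampal Veh-Context, 84.7, 72.2, 99.5 and 84.6 in Veh-CFC, 51.9, 51.8, 67.5 and 55.1 in HDACi-Context and 56.1, 59.4, 65.2 and 57.8 in HDACi-CFC. Striatal values were 80.7, 73.2, 83.4 and 85.5 in Veh-Context, 73.6, 72.5, 89.0 and 71.1 in Veh-CFC, 52.7, 50.5, 54.0 and 57.4 in HDACi-Context and 55.7, 58.5, 61.9 and 56.2 in HDACi-CFC. No drug library reached a vehicle library of its region. Without the libraries that stood apart, the CFC values were -0.41 (adjusted p = 0.0602) in hippocampus and -0.23 (adjusted p = 0.0508) in striatum. Smarca1 (SNF2L), the paralog known from differentiated neurons, had -0.02, 0.05, 0.15 and 0.10 and did not pass. Smarca5 over Smarca1 per exon base went from 1.46 and 1.42 to 0.976 and 1.05 in hippocampus, and from 0.957 and 0.974 to 0.643 and 0.707 in striatum.

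Baz1a (ACF1), a partner of Smarca5 in the ACF and CHRAC complexes, showed the largest fold change of the members in hippocampus, at a low level of 14 to 89 counts per library. There it was at 2.10, 2.26, 1.28 and 2.10 CPM in Veh-Context, 2.63, 1.40, 2.69 and 1.36 in Veh-CFC, 0.538, 0.708, 0.715 and 0.802 in HDACi-Context and 0.811, 0.608, 0.825 and 0.64 in HDACi-CFC. In striatum, with 125 to 589 counts, it was at 17.6, 14.5, 17.2 and 13.5 in Veh-Context, 20.6, 8.46, 13.1 and 10.8 in Veh-CFC, 4.13, 9.48, 7.24 and 8.58 in HDACi-Context and 7.75, 5.14, 10.7 and 5.93 in HDACi-CFC. The treatments overlapped in striatum after CFC and in no other comparison. These gave log2 fold changes of -1.42 ± 0.258 (adjusted p = 0.000787), -1.39 ± 0.265 (adjusted p = 0.00111), -0.76 ± 0.288 (adjusted p = 0.0667) and -0.98 ± 0.287 (adjusted p = 0.0193). The striatal Context call was lost without HDACi-Context replicate 1.

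Of its relatives, Baz2a (TIP5), which silences ribosomal DNA repeats, rose in hippocampus, by 0.35 ± 0.061 (adjusted p = 0.000586) and 0.31 ± 0.061 (adjusted p = 0.00137), and was at 0.11 and 0.14 in striatum, without passing. The difference between regions did not pass for Baz2a. Baz1b, the Williams syndrome transcription factor, had 0.03, 0.09, -0.03 and -0.06, Baz2b 0.08, 0.05, 0.15 and 0.12, and Bptf, the large subunit of NURF, -0.13, -0.16, -0.08 and -0.12, none passing.

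Smarcad1, a remodeller that restores silent chromatin after replication, also fell everywhere (chr6:65042583-65116061, plus strand). Its hippocampal values were 40.5, 39.0, 45.4 and 42.5 CPM in Veh-Context, 42.0, 34.3, 47.0 and 41.3 in Veh-CFC, 24.4, 24.5, 30.7 and 25.2 in HDACi-Context and 26.1, 27.4, 27.3 and 26.7 in HDACi-CFC. In striatum it was at 35.5, 36.9, 38.8 and 38.9 in Veh-Context, 32.6, 34.5, 41.4 and 35.2 in Veh-CFC, 23.8, 23.6, 25.2 and 24.3 in HDACi-Context and 21.6, 24.4, 24.4 and 25.7 in HDACi-CFC. The treatments did not overlap. Fold changes on the log2 scale were -0.55 ± 0.101, -0.59 ± 0.101, -0.50 ± 0.0779 and -0.52 ± 0.0776, with adjusted p of 0.00085, 0.000437, 0.000193 and 0.00012. Smarcal1, an annealing helicase at stalled forks, had -0.03, 0.02, 0.13 and 0.08 and did not pass.

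The ARID proteins outside BAF are DNA-binding regulators rather than remodellers. Arid5b (chr10:68092520-68278740, minus strand), a partner of the histone demethylase Phf2, rose in all 4 comparisons. In hippocampus it was at 50.1, 48.3, 40.6 and 45.4 CPM in Veh-Context, 41.8, 47.0, 49.7 and 48.5 in Veh-CFC, 75.6, 74.7, 67.3 and 74.5 in HDACi-Context and 66.2, 63.8, 80.3 and 72.2 in HDACi-CFC. In striatum it was at 51.7, 39.2, 49.1 and 42.2 in Veh-Context, 34.4, 51.9, 39.9 and 47.4 in Veh-CFC, 66.5, 62.1, 51.1 and 60.5 in HDACi-Context and 55.2, 60.2, 74.4 and 67.7 in HDACi-CFC. The treatments overlapped in striatum after Context, by 1 library on each side, and not elsewhere. Its log2 fold changes were 0.66 ± 0.0811, 0.75 ± 0.0813, 0.66 ± 0.128 and 0.51 ± 0.127, with adjusted p of 2.31e-05, 7.89e-06, 0.00123 and 0.00727.

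Arid4a, a retinoblastoma-binding subunit of the Sin3 deacetylase complex, fell in all 4, with log2 fold changes of -0.62, -0.63, -0.30 and -0.39 and adjusted p of 0.000108, 9.63e-05, 0.0459 and 0.0105. Its striatal CFC call was lost in 9 of 16 fits without a library, and without the libraries that stood apart it was at -0.26 (adjusted p = 0.117). Arid5a, an RNA-binding stabiliser of inflammatory transcripts, passed in striatum after CFC (0.76 ± 0.218, adjusted p = 0.0179), a call lost without Veh-CFC replicate 4 and, at 0.65 (adjusted p = 0.077), without the libraries that stood apart. With a term for replicates 1 and 2 against 3 and 4, Arid5a passed in all 4 comparisons, at 0.33, 0.38, 0.80 and 0.49 (adjusted p = 0.0374, 0.0192, 0.00285 and 0.0420). Arid3a, Arid3b and Arid3c passed in no drug comparison, and Arid3c was too low to be tested in hippocampus.

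Only Actl6a, Chd1, Ino80 and Smarcad1, of the 12 genes called in all 4 comparisons, kept those calls under each of the 11 alternative settings and each left-out library. When the libraries that stood apart were left out of the CFC comparisons, 3 members rose and 7 fell in hippocampus, where 3.87% of all genes rose and 8.73% fell. In striatum 4 rose and 11 fell, against 8.65% and 14.8% of all genes. Among the changes kept there, Actl6a was at -1.07 and -0.79 and Chd1 at -0.80 and -0.81 (adjusted p = 0.000109 and 1.67e-05 for Actl6a, 0.00355 and 6.72e-05 for Chd1).

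The promoter regions of members that moved in opposite directions, and of the unmoved Actl6b, are shown because these genes move together or apart under a drug that acts on chromatin. Each is the 250 bases before the RefSeq transcription start (GRCm38.p6), 5′ to 3′ on the strand of the gene. Capitals mark matches, on either strand and at any position, to the letters of the GC box, the CCAAT box and the TATA box. The letters are given after the sequences. The windows are chr3:32708296-32708545 (plus strand) for Actl6a, chr2:119477688-119477937 (minus) for Ino80, chr6:65042341-65042590 (plus) for Smarcad1, chr7:29303755-29304004 (plus) for Dpf1, chr10:68278727-68278976 (minus) for Arid5b and chr5:137553296-137553545 (plus) for Actl6b. The RefSeq start of Actl6a lies 2248 bases inside the gene as GENCODE annotates it.
Actl6a: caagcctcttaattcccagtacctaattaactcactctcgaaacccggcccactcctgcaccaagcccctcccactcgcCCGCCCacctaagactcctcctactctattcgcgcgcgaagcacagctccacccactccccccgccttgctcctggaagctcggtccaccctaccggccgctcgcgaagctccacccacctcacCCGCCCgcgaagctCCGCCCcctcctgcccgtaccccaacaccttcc
Ino80: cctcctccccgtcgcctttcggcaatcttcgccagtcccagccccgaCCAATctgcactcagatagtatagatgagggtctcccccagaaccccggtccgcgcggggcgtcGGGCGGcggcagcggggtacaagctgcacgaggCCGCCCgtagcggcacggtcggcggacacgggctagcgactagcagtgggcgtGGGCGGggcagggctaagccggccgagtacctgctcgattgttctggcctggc
Smarcad1: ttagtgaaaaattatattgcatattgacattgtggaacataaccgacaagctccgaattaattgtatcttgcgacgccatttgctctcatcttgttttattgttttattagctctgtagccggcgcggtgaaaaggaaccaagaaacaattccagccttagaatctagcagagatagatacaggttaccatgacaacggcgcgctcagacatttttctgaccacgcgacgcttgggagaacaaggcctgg
Dpf1: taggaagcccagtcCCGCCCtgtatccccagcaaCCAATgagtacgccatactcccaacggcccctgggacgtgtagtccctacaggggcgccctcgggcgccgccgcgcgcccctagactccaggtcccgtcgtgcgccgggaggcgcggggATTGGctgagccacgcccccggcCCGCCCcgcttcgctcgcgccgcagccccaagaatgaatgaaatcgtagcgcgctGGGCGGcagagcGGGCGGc
Arid5b: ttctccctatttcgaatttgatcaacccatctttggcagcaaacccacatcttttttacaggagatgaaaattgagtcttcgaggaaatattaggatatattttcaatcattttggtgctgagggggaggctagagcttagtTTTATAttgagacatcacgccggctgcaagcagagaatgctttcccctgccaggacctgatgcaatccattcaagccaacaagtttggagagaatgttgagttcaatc
Actl6b: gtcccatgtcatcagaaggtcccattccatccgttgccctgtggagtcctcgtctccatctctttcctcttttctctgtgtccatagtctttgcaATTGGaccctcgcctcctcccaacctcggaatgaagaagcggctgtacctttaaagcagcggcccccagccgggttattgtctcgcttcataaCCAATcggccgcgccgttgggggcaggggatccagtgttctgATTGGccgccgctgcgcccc

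The Actl6a window held 3 GC boxes and 19 CpG dinucleotides, that of Ino80 3 GC boxes, 1 CCAAT box and 28 CpG, and that of Dpf1 4 GC boxes, 2 CCAAT boxes and 31 CpG. The Actl6b window held 3 CCAAT boxes. Arid5b had only 4 CpG and a match to the letters TATAAA on the opposite strand, which by itself does not make a TATA box. Smarcad1 held none of the motifs. Windows were found for 38 of the 50 members. Their median was 20 CpG against 10 over 17492 windows of protein-coding genes. Those 17492 windows were not limited to genes expressed here, whereas the members had to reach the count minimum. The median was 21 both in the 5 matched members that fell everywhere and in those that passed nowhere. A GC box, searched as GGGCGG, occurred in 29 of the 38 (76.3%) against 42.7% of all windows. It was in 4 of the 5 that fell everywhere and in 1 of the 2 that rose everywhere. CCAAT boxes were in 14 (36.8% against 36.3%), a YY1 motif (GCCATNTT) in 5 (13.2% against 3.74%), and the ETS motif CCGGAAG in 4 (10.5% against 9.13%). The cyclic AMP response element TGACGTCA was in 1 (2.63% against 2.01%), the shorter element TGACG, which lies inside it, in 9 (23.7% against 20.3%), the E-box CACGTG in 3 (7.89% against 6.64%) and TATAAA in 3 (7.89% against 12.4%). All motifs were searched on both strands.

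Exon base composition also varied with the pattern. Median exon GC content was 46.2% in the 9 genes that fell everywhere, 48.6% in the 3 that rose everywhere and 53.0% in the 28 that passed nowhere.

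Further subunits and relatives, which the symbol rule does not reach, were read from 4 lists. The shares of all genes that fell, to be read beside their counts, were 13.4%, 13.2%, 14.6% and 14.5%, and 7.42%, 6.55%, 9.57% and 10.3% rose. Of 23 other genes of the INO80, SRCAP and TIP60 complexes none rose, and 11, 12, 14 and 11 fell, with medians of -0.28, -0.30, -0.34 and -0.28. Actr8, Brd8, Epc1, Epc2, Ing3, Kat5, Ruvbl1 and Yeats4 fell in all 4, while 8 genes of the list passed in none. Epc1, a scaffold of the TIP60 acetyltransferase complex, had log2 fold changes of -0.67, -0.60, -0.59 and -0.49 (adjusted p from 1.16e-06 to 5.18e-05). Ing3, a reader of trimethylated H3K4 in the same complex, had -0.78, -0.77, -0.60 and -0.55, and Brd8, its bromodomain subunit, -0.57, -0.53, -0.49 and -0.36.

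Of 11 other BAF and PBAF subunits 2 rose in each comparison and 2, 3, 4 and 6 fell, with medians of -0.11, -0.05, -0.22 and -0.22. Bcl11b, a zinc finger protein that marks medium spiny neurons and deep cortical projection neurons and associates with BAF, rose in all 4 (0.38, 0.58, 0.46 and 0.66). Its paralog Bcl11a passed in hippocampus only (0.30, 0.36, 0.20 and 0.26), and Bicral, a subunit of noncanonical BAF, had 0.06, 0.12, 0.24 and 0.30. The difference of these effects between regions was not tested for the list genes. Of 12 other SNF2 family ATPases 4, 5, 5 and 4 fell and 0, 1, 1 and 2 rose. Ercc6, the Cockayne syndrome repair ATPase, had -0.62, -0.53, -0.81 and -0.75, and Rad54l2, a modulator of nuclear receptors, -0.58, -0.64, -0.72 and -0.59. Both fell in all 4, as did Hltf. Zranb3, a fork remodeller, passed in striatum, at 0.46 and 0.53. Of 6 other ISWI partners 2, 2, 1 and 1 fell and none rose. Cecr2, the partner of Smarca1 in the CERF complex, was at -0.83, -0.64, -0.42 and -0.40 and passed in hippocampus, as did the histone-fold protein Pole3 (-0.26, -0.33, -0.14 and -0.21), while its partner Chrac1 (-0.35, -0.29, -0.40 and -0.00) passed in striatum after CFC.

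Fear conditioning gave no call among the members. CFC was compared with Context under each treatment in each region, and edgeR called 0 of the members and 0% of all genes in the 4 conditioning comparisons and in both interaction tests, which ask whether the drug effect differed between behaviours. At an unadjusted p under 0.05 there were 0 members in hippocampus with vehicle, 2 with CI-994, 1 in striatum with vehicle and 0 with CI-994, and 188, 775, 216 and 988 of all genes in that order. The interactions had 0 and 0 members at that level, and 390 and 380 of all genes in hippocampus and striatum. DESeq2 also called no member in these 6 tests.

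The lowest p among the members was that of Smarca2 in hippocampus with CI-994, with a log2 fold change of -0.13 ± 0.048 (adjusted p = 0.962). In striatum with vehicle it was Dpf3, at -0.38 ± 0.162 (adjusted p = 1.0). Over the members, log2 fold changes of conditioning ran from -0.16 to 0.10 in hippocampus with vehicle, from -0.14 to 0.42 there with CI-994, from -0.75 to 0.18 in striatum with vehicle and from -0.18 to 0.31 there with CI-994. For comparison, the median standard error of a member in the drug tests was 0.090 in hippocampus and 0.086 in striatum. The counts of Actl6a overlapped between behaviours: 11.7 to 12.8 CPM in hippocampal Veh-Context and 11.2 to 14.7 in Veh-CFC, and 5.57 to 6.54 and 5.36 to 6.67 with CI-994.

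Before any drug the 2 regions differed in many members, as they did in 44.1% of all genes. Between the Veh-Context groups, 10 of 50 members were higher in hippocampus (24.2% of all genes were) and 16 of 50 lower (19.9%). With 50 genes, the share of members that were higher lies near that of all genes. The share that were lower was above that of all genes. The 16 lower members include Arid3c, which reached the count minimum through striatal libraries only. The median log2 difference was -0.01 for the members and 0.02 for all genes. Within BAF, paralogs of one family differed in opposite directions. Dpf3 (BAF45C) was at 12.3, 11.9, 12.8 and 9.90 CPM in hippocampus and 3.01, 2.33, 2.25 and 2.68 in striatum, a log2 difference of 2.16 ± 0.157 (adjusted p = 1.94e-12). Dpf1, by contrast, was lower in hippocampus, at -0.67 ± 0.14 (adjusted p = 0.000235). Among the BAF60 paralogs Smarcd2 was higher in hippocampus (0.94 ± 0.122, adjusted p = 1.89e-07), with the values given above. Smarcd1 was lower there, at 100.0, 97.2, 73.9 and 75.9 CPM against 226.7, 244.3, 193.9 and 192.8 (-1.34 ± 0.121, adjusted p = 2.04e-10), and so was Smarcd3, at 30.5, 35.4, 27.1 and 29.9 against 76.9, 91.0, 69.4 and 65.4 (-1.33 ± 0.117, adjusted p = 1.02e-10). The regions did not overlap in these genes, though for Dpf1 the highest hippocampal library reached 41.6 CPM against a lowest striatal one of 41.7.

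Arid1b was higher (0.38 ± 0.102, adjusted p = 0.00268) and Arid1a lower (-0.42 ± 0.0889, adjusted p = 0.000284) in hippocampus, so that Arid1a over Arid1b per exon base was 1.27 there and 2.21 in striatum. Ss18 was higher in hippocampus (0.44), and Actl6a (-0.32) and Smarcb1 (-0.25) lower. Smarca4 (0.13), Smarcc2 (0.14) and Actl6b (-0.23) did not pass.

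Outside BAF, Baz1a was far lower in hippocampus, by a log2 difference of -3.05 ± 0.289 (adjusted p = 5.08e-10), and lay at 0.270 RPKM there against 2.19 in striatum. Smarca1 was lower in hippocampus (-0.55 ± 0.0916, adjusted p = 1.18e-05) while Smarca5 did not pass (0.06), and Smarca5 over Smarca1 was 1.46 against 0.957. Chd3, at 836.1, 824.6, 703.8 and 711.0 CPM against 440.0, 509.4, 415.4 and 468.2, was higher in hippocampus (0.72 ± 0.0889, adjusted p = 8.8e-08), as was Chd5 (0.48 ± 0.164, adjusted p = 0.0182). In striatum Chd3 and Smarcd1 shared the top of the per-length order, at 54.3 and 53.3 RPKM with overlapping values. Arid3b was lower in hippocampus (-1.53 ± 0.187, adjusted p = 7.05e-08), at 4.23, 4.74, 5.15 and 3.87 CPM against 15.5, 13.5, 11.9 and 10.1. Arid3c was called lower too. It had no count in 3 of the 4 hippocampal libraries and 0.0284 CPM in the other, against 0.321 to 0.892 CPM in striatum. No fold is given for it. No hippocampal library of any group exceeded 0.101 CPM of Arid3c. It thus reached the count minimum through striatal libraries only, so its lower call was not independent of the rule that chose the genes. The mixture of cell types differs between the regions, as the marker lists above show, and its part in these differences was not tested.

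**Figure D4:**
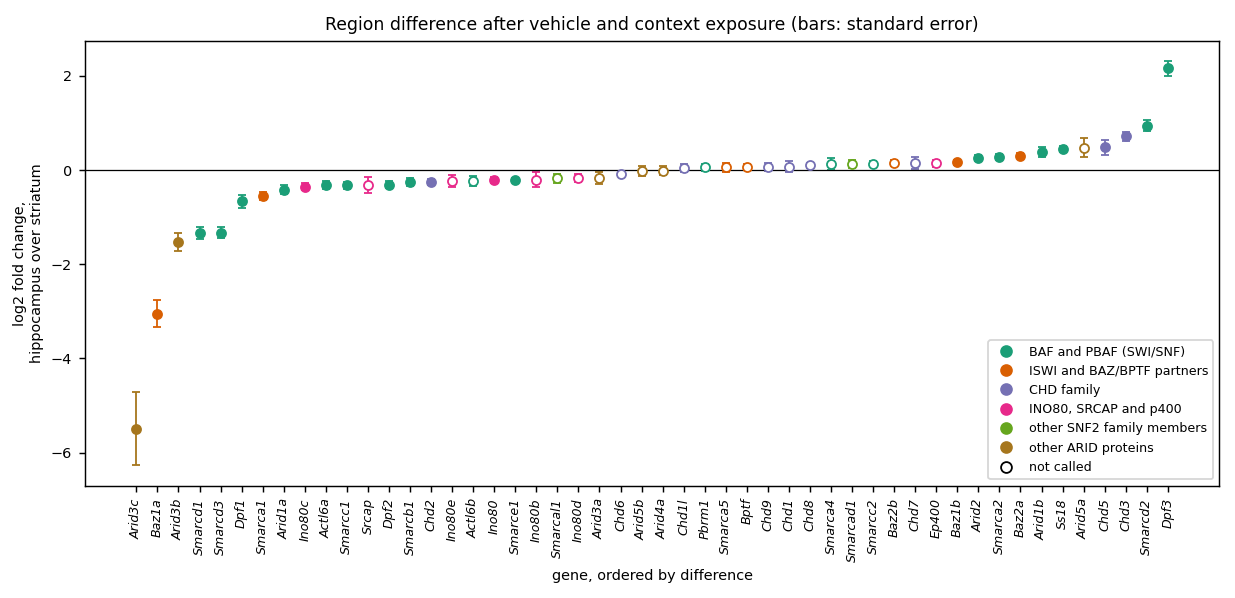
Log2 difference, hippocampus over striatum, of the 50 members in Veh-Context mice (4 libraries per region), ordered by size and coloured by complex, with standard errors as bars; filled points passed at an adjusted p under 0.05. Dpf3, Smarcd2 and Chd3 are at the hippocampal end, and Baz1a, Arid3b, Smarcd1 and Smarcd3 at the striatal end beside Arid3c, whose fitted value rests on near 0 counts in hippocampus. Arid3c reached the count minimum through striatal libraries only.

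Labels do not say whether hippocampal and striatal libraries with one number come from one mouse, so the region tests treat them as separate mice.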

How the data were processed

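The deposited file holds raw counts per Ensembl gene for 32 libraries, which the authors made from 100-bp paired reads of stranded mRNA libraries, per the labels' protocols. Build mm10 and the tools STAR 2.6, bcl2fastq 2.20.0 and DESeq2 are listed, without roles, in the submitters' processing notes. How reads were counted, and with which strand option, is not given in the sources used here. Symbols, exon lengths, GC content and positions came from GENCODE (GRCm38), which matched 54079 of 54146 identifiers and left 67. The members and lists were chosen with earlier results of these data known.

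Counts were tested with edgeR 4.0.16 (R 4.3.3): TMM normalization, its default filter on low counts and a quasi-likelihood F test on group means, with Benjamini-Hochberg adjustment over all genes tested. Hippocampal and striatal libraries were fitted separately for drug, conditioning and interaction, and together for region. Drug effects are HDACi minus Veh, conditioning effects CFC minus Context, region differences hippocampus minus striatum. CPM divide counts by the library total, without the TMM factors of the test, and RPKM divide CPM by merged exon length. Libraries are separate mice within a region. The procedure was tested on simulated data with known changes. Ratios between paralogs were compared by exact two-sided permutation tests. Promoter windows are the 250 bases before RefSeq starts.

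Named in the text were every catalytic ATPase, the paralog sets Actl6, Arid1 and Arid2, Dpf, Smarcd, Smarcc and Baz, every member called in all 4 drug comparisons, the 5 called members with the largest changes per direction and comparison, and 3 called genes from each list of other subunits. Other genes named were chosen after their values were seen. Alternatives were DESeq2 1.42.0 (its test and its size factors), scaling to library totals, no filter, a term for replicates 1 and 2 against 3 and 4, each such pair alone, only the groups compared, GC content and length offsets, a replicate block, the libraries that stood apart left out, and each library left out.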

Additional observations from a re-analysis of the deposited data

Results flagged for a closer look

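In 9 of 128 groups of 4 libraries, tested for 16 members by Dixon's criterion, 1 library lay far from the other 3, and chance gives about 1 in 20. Of these, 3 were in HDACi-Context replicate 3 of the hippocampus: Arid5b was at 67.3 CPM there (74.5 to 75.6 in the others), Ino80d at 46.5 (40.7 to 41.2) and Smarcad1 at 30.7 (24.4 to 25.2). Baz1a was at 1.28 CPM in hippocampal Veh-Context replicate 3, against 2.10 to 2.26.

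In striatum, Veh-CFC replicate 3, which also had a low level of medium spiny neuron markers, held the highest Smarca5 value of its group at 89.0 CPM (71.1 to 73.6 in the others) and the lowest Smarcb1 value at 48.2 CPM (57.1 to 58.0). Chd1 was at 14.9 CPM in HDACi-Context replicate 1 (18.04 to 18.60), and Ino80d at 65.9 in Veh-CFC replicate 1 (59.1 to 59.8) and 51.7 in HDACi-Context replicate 2 (45.3 to 46.0). In none of these groups did the distant library cross the range of the other treatment in its comparison.

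The effect of CI-994 on Smarcd2 differed between regions after Context by 0.76 on the log2 scale (edgeR interaction, adjusted p = 0.0349): it fell in 4 of 4 striatal HDACi-Context libraries relative to every Veh-Context library, while the hippocampal treatments overlapped.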

How the results depend on the processing

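The 9 members lower and 3 higher in all 4 drug comparisons became 10 and 3 with DESeq2's test, 7 and 3 with its size factors, 12 and 3 with offsets for GC and length, 9 and 4 with the term for replicate pairs, 8 and 4 with the replicate block (Arid4a lost, and Arid5a gained as with the pair term), 11 and 2 by library totals, 7 and 3 without a filter, 6 and 2 with only the groups compared, 5 and 2 without the libraries that stood apart, 4 and 0 with replicates 1 and 2 only, and 4 and 1 with replicates 3 and 4 only. Counts of higher members in hippocampus CFC (5) were 3 without the libraries apart, by library totals and with either replicate pair alone; in hippocampus Context (5) 8 with the offsets and 3 by totals, with replicates 1 and 2 and with only the groups compared. In striatum CFC (5) replicates 1 and 2 gave 0. In striatum Context (5) the pair term and the replicate block gave 8, totals 3, no filter 3, replicates 1 and 2 gave 1 and replicates 3 and 4 gave 2. Counts of lower members in hippocampus CFC (10) were 16 with the offsets and 6 with replicates 3 and 4; in hippocampus Context (11) 17 with the pair term, 20 by totals and 6 with replicates 3 and 4; in striatum CFC (12) 5 with either pair; in striatum Context (13) 20 by totals, 7 and 8 with the pairs. The regional difference of the drug effect called 1 member after CFC (0) with the pair term, the offsets and the replicate block, and 0 after Context (1) with either pair or only the groups compared. Leaving out each library gave 3 to 5, 3 to 6, 3 to 5 and 3 to 6 higher members and 0 to 1 for the regional difference after Context. The pairs alone use fewer samples; otherwise the cause was not tested. Chd9 reversed in the baseline difference between regions, to -0.10 (adjusted p = 0.0446) with the offsets. Scaling to totals moved the median log2 change of all genes from 0.03 to -0.09 in striatum Context, the only shift above 0.1. Libraries of different groups with the same replicate number shared some structure, though not throughout. Their deviations from group means correlated with a median of 0.18 in hippocampus and 0.04 in striatum. For pairs with different numbers the medians were -0.05 and -0.06. Same-number correlations reached down to -0.06 and -0.31, and 8 of 16 and 7 of 16 libraries correlated best with their own number. The main fit held no term for replicate number. The replicate block gave 6 higher and 11 lower, 7 and 16, 6 and 12, and 8 and 16 members. No member was called for conditioning or its interaction under any of the 11 alternatives. Low counts limit Srcap, Baz1a in hippocampus and Arid3c.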
